A study of Mus musculus with 10 samples.

Results

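The genes described here are 7 of the 13578 genes in an RNA sequencing table of embryonic gonadal soma: 1700106J16Rik, A730017C20Rik, Dnahc8, Lipo1, Serpinb6b, Slfn9 and Trf. They were selected on their rlog values, as genes lower in embryos from which vitamin C had been withdrawn than in supplied embryos, so the difference between the groups is given as a description and is not tested again. What the choice did not use is how the 7 genes vary among embryos of the same group, and most of the tests below concern that variation. All embryos were female, on a C57BL/6 background, at embryonic day 13.5 and Gulo-/-, in a colony that depends on its diet for vitamin C. The supplied group (n = 5) had physiological vitamin C, and the withdrawn group (n = 5) had it taken away over the first weeks of gestation. Each library came from the Oct4-negative cells sorted from the gonads of a single embryo, which is a mixture of somatic cell types, and the source labels call these cells gonadal soma.

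Vitamin C keeps the iron of a family of dioxygenases in its reduced form, and these enzymes include the TET DNA demethylases and the collagen prolyl hydroxylases. Gulo encodes the enzyme that completes vitamin C synthesis, which mice have and humans lack. The female gonad at this stage holds pregranulosa cells, interstitial and endothelial cells, a surface epithelium and macrophages around germ cells that are entering meiosis. The 7 genes come from unrelated families. Trf encodes transferrin, the iron carrier of plasma. Serpinb6b encodes an intracellular serine protease inhibitor of clade B. Slfn9 is a Schlafen gene, of a family known for induction by interferon. Lipo1 is related to the acid lipases. Dnahc8, now named Dnah8, encodes a dynein heavy chain of the axoneme, the motor of sperm tails and motile cilia. 1700106J16Rik (now Ccdc182) encodes a coiled-coil protein, and A730017C20Rik (now Minar2) is named as a membrane protein associated with NOTCH2.

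The sequences upstream of 4 of the genes are shown because Lipo1, Slfn9 and Serpinb6b are the genes whose variation among embryos is described most closely below and 1700106J16Rik had the smallest p of the 7 in the comparison that chose them. Each is the 249 bases before the annotated start in RefSeq's GRCm38.p6 tables, read 5′ to 3′ on the gene's own strand, with CpG dinucleotides, the sites of DNA methylation, in capitals.
1700106J16Rik, chr11:88293793-88294041 (+ strand): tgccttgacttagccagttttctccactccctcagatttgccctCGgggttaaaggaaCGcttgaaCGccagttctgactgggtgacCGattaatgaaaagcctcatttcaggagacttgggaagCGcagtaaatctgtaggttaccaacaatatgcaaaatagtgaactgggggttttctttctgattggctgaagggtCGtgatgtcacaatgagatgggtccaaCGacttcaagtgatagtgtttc
Serpinb6b, chr13:32965011-32965259 (+ strand): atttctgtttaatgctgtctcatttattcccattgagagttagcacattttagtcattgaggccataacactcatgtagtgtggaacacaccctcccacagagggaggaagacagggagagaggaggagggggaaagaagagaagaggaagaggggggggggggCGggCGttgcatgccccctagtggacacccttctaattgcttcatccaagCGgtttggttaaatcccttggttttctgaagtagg
Slfn9, chr11:82991832-82992080 (- strand): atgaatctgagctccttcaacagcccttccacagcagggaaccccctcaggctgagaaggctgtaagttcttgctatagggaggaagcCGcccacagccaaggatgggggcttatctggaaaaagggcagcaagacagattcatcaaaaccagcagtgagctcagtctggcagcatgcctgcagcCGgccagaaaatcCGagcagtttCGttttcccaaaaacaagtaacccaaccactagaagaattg
Lipo1, chr19:33787454-33787702 (- strand): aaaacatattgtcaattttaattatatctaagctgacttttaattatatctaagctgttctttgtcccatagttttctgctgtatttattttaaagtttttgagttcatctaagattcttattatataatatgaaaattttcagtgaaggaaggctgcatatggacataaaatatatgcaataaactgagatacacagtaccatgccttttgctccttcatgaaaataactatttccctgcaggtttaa

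These upstream sequences were described by their CpG dinucleotides and by 4 motifs, and were not compared with one another base by base. The Lipo1 sequence held 0 CpG dinucleotides, as did 7.90% of the 32851 promoters of the same length in the table, and 28.1% of its bases were G or C. The Serpinb6b sequence held 3, the Slfn9 sequence 4 and the 1700106J16Rik sequence 7, where the median over all promoters was 6. The upstream sequence of Dnahc8, not shown, held 13. Both strands of these 5 sequences were searched for 4 motifs: the E-box CACGTG, the GATA motif AGATAA, the NR5A motif AAGGTCA and the interferon-stimulated response element. The response element matched in Slfn9 only, on the opposite strand as GAAAACGAAA, and it matched in 2.96% of all promoters. AGATAA also matched in Slfn9 only, where 9.97% of all promoters held it. CACGTG (6.00% of all promoters) and AAGGTCA (4.06%) matched in none of the 5. A match is a description of the letters and not a binding site. The authors' coordinates are on another build, mm9, and were not combined with these.

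The values are regularised log2 (rlog) values, in which 1 unit is a 2-fold difference and which shrink the differences of weakly expressed genes. Levels are given as deposited, differences are withdrawn minus supplied, and ± marks the SD over the 5 embryos of a group. Read depth is unknown and counting intervals are therefore not given. With bulk RNA, fewer cells of a type cannot be told apart from less RNA per cell. In all 7 genes the withdrawn mean was below the supplied mean, by 0.17 to 0.40 on the rlog scale. In 5 of the 7 the highest withdrawn embryo lay below the lowest supplied embryo, where 0.464% of all genes had groups separated in this direction and 0.346% in the other. The choice of the genes sets this count, and nothing is read from it.

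**Figure D1:**
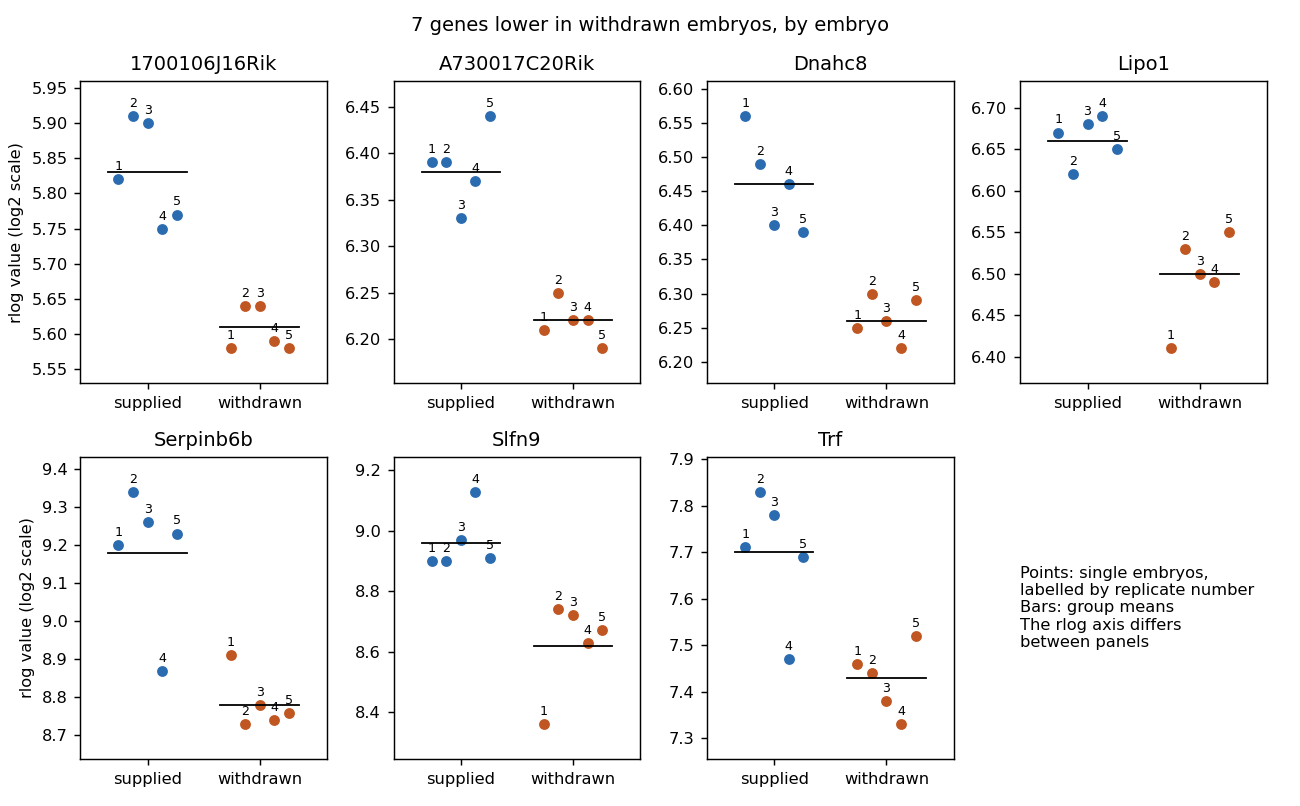
Level of each of the 7 genes (rlog, log2 scale; the axis differs between panels) in the 5 supplied and 5 withdrawn embryos, with each point 1 embryo labelled by its replicate number and each bar a group mean. The groups are separate except in Serpinb6b and Trf, where supplied embryo 4 lies at 8.87 and 7.47, within the withdrawn range.

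Trf, the iron carrier, was at 7.71, 7.83, 7.78, 7.47 and 7.69 in supplied embryos 1 to 5 and at 7.46, 7.44, 7.38, 7.33 and 7.52 in withdrawn embryos 1 to 5. Supplied embryos 2 and 3 were highest, supplied embryo 4 stood well below the other supplied embryos, and the groups overlapped through that embryo and withdrawn embryo 5. The group levels were 7.70 ± 0.140 and 7.43 ± 0.0747 (SD, n = 5 each), a difference of -0.27 (SE 0.0602) or 0.828-fold on the rlog scale. Without supplied embryo 4 the difference was -0.33. The Trf value is uncertain because 59.4% of its 50-base words in the reference transcripts are shared with other genes, 58.5% with Gm20425, an overlapping gene model on the same strand that had no row.

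The other genes of iron handling centred on 0. Of 23 listed genes 20 had a row, 0 rose and 0 fell by limma with Benjamini-Hochberg adjustment at 0.05 (1 had an unadjusted p under 0.05), and their median difference was -0.001, beside 0.0002 over all 13578 genes. Of all genes 0.0221% were lower and 0% higher at this threshold, so nothing is read from counts of 0 here or in the lists below. At an unadjusted limma p under 0.05 the shares were 2.84% lower and 2.45% higher. The iron exporter gene Slc40a1 differed by 0.15 (SE 0.0572, limma adjusted p = 0.928) and the ferrireductase gene Steap3 by -0.090 (SE 0.0448, limma adjusted p = 0.931). Tfrc, the receptor that takes up transferrin, named here for that role, differed by -0.027 (SE 0.0781, limma adjusted p = 0.998). Markers of hepatocytes, which make most transferrin, could not be examined, as 0 of the 9 listed (Alb, Afp and Ttr among them) had a row in the table.

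Serpinb6b, the protease inhibitor, was at 9.20, 9.34, 9.26, 8.87 and 9.23 in supplied embryos 1 to 5 and at 8.91, 8.73, 8.78, 8.74 and 8.76 in withdrawn embryos 1 to 5. As with Trf, supplied embryo 4 was the low supplied value, and only it and withdrawn embryo 1 brought the groups into overlap. The levels were 9.18 ± 0.182 and 8.78 ± 0.0704 (SD, n = 5 each), a difference of -0.40 (SE 0.0711), the largest of the 7, or 0.759-fold. Without supplied embryo 4 it was -0.48. In that fit the SE was 0.0511.

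Of 18 other listed clade B serpins 3 had a row, of which 0 rose, 0 fell and 0 had an unadjusted p under 0.05 by limma, with a median difference of -0.021. Serpinb6a, the near relative of broad expression, differed by -0.096 (SE 0.0908, limma adjusted p = 0.989). Serpinb9, the inhibitor of granzyme B and the next gene of the locus with a row, 18.0 kb away in the reference annotation, differed by 0.033 (SE 0.0494, limma adjusted p = 0.992). Of the 50-base words in the reference transcripts of Serpinb6b, 2.92% also occurred in transcripts of other genes, most of them Serpinb6c.

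Slfn9, the Schlafen gene, was at 8.90, 8.90, 8.97, 9.13 and 8.91 in supplied embryos 1 to 5 and at 8.36, 8.74, 8.72, 8.63 and 8.67 in withdrawn embryos 1 to 5. Supplied embryo 4, the low embryo of Trf and Serpinb6b, was here the highest, and withdrawn embryo 1, the highest withdrawn embryo of Serpinb6b, was here by far the lowest. The groups did not overlap. Their levels were 8.96 ± 0.0991 and 8.62 ± 0.157 (SD, n = 5 each), a difference of -0.34 (SE 0.0686) or 0.791-fold.

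The 4 other Schlafen genes with a row, of 9 listed, showed 0 rises and 0 falls by limma with Benjamini-Hochberg adjustment at 0.05 (1 had an unadjusted p under 0.05), with a median difference of -0.002. Slfn5, the neighbour at 9.47 kb, differed by 0.099 (SE 0.0447, limma adjusted p = 0.931) and Slfn2 by -0.035 (SE 0.0333, limma adjusted p = 0.989). Slfn8, the neighbour on the other side at 10.3 kb, differed by -0.017 (SE 0.0236, limma adjusted p = 0.992). The Slfn9 value is uncertain in so far as 11.9% of its 50-base words are shared with other genes, 8.10% with Slfn10-ps alone, which had no row.

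Lipo1, the lipase relative, was at 6.67, 6.62, 6.68, 6.69 and 6.65 in supplied embryos 1 to 5 and at 6.41, 6.53, 6.50, 6.49 and 6.55 in withdrawn embryos 1 to 5. The supplied embryos lay close together, and withdrawn embryo 1 was lowest, as in Slfn9. The levels were 6.66 ± 0.0258 and 6.50 ± 0.0542 (SD, n = 5 each), a difference of -0.17 (SE 0.0340) or 0.892-fold. Of 14 other lipase genes listed 4 had a row, with 0 rises, 0 falls and 0 at an unadjusted p under 0.05 by limma and a median difference of -0.001. Lipg, the endothelial lipase, differed by -0.079 (SE 0.0475, limma adjusted p = 0.962) and Lpl, lipoprotein lipase, by 0.056 (SE 0.0510, limma adjusted p = 0.989). Near-identical copies exist: 44.4% of the 50-base words of Lipo1 also occur in other genes, 40.8% in Gm8978, which had no row, so its value may hold reads of these copies.

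Dnahc8, the axonemal dynein gene, was at 6.56, 6.49, 6.40, 6.46 and 6.39 in supplied embryos 1 to 5 and at 6.25, 6.30, 6.26, 6.22 and 6.29 in withdrawn embryos 1 to 5. The groups did not overlap, and supplied embryo 1 was the highest. The levels were 6.46 ± 0.0677 and 6.26 ± 0.0338 (SD, n = 5 each), a difference of -0.20 (SE 0.0357) or 0.872-fold. Other dynein genes centred near 0. Of 21 heavy chain and arm subunit genes listed 10 had a row, with 0 rises, 0 falls and 0 at an unadjusted p under 0.05 by limma and a median difference of -0.014. The axonemal heavy chain gene Dnahc10 differed by -0.028 (SE 0.0301, limma adjusted p = 0.991) and Dync1h1, the heavy chain of cytoplasmic dynein, by 0.057 (SE 0.0606, limma adjusted p = 0.991).

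Of 20 genes of the ciliary programme 9 had a row, of which 0 rose and 0 fell by limma at an adjusted p under 0.05 and 1 had an unadjusted p under 0.05. Their median difference was -0.036, with 8 of the 9 below 0, beside 6765 of all 13578 genes, and nothing is read from this count. The tektin gene Tekt2 differed by -0.13 (SE 0.0443, limma adjusted p = 0.900) and the ciliary transcription factor gene Rfx3 by -0.083 (SE 0.0530, limma adjusted p = 0.963). In the GENCODE annotation Dnahc8 overlaps 7 genes on the opposite strand, of which Glo1 alone had a row, whereas RefSeq places Glo1 14.3 kb outside it (Glo1 difference 0.028, SE 0.0554, limma adjusted p = 0.994). Whether the authors counted by strand is not stated, so reads from stretches that Dnahc8 shares with those genes cannot be told apart. Of the 50-base words in the reference transcripts of Dnahc8, 2.29% also occurred in transcripts of other genes, 1.48% in the overlapping AC165951.2.

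1700106J16Rik was at 5.82, 5.91, 5.90, 5.75 and 5.77 in supplied embryos 1 to 5 and at 5.58, 5.64, 5.64, 5.59 and 5.58 in withdrawn embryos 1 to 5. Embryos 2 and 3 were the highest of each group, and these are the embryos whose titles share their first number. The groups did not overlap, at 5.83 ± 0.0736 and 5.61 ± 0.0318 (SD, n = 5 each), a difference of -0.22 (SE 0.0334) or 0.857-fold. With embryos 2 and 3 of each group averaged, it was -0.21 (SE 0.0349), and the limma adjusted p was 0.0817 in place of 0.0288. The flanking genes with a row, Mrps23 at 82.5 kb and Msi2 at 44.1 kb, differed by -0.021 (SE 0.0485, limma adjusted p = 0.995) and 0.066 (SE 0.0440, limma adjusted p = 0.963). No other annotated gene overlaps it, and 0 of its 50-base words are shared.

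A730017C20Rik was at 6.39, 6.39, 6.33, 6.37 and 6.44 in supplied embryos 1 to 5 and at 6.21, 6.25, 6.22, 6.22 and 6.19 in withdrawn embryos 1 to 5. Its residual SD over both groups was the smallest of the 7, although among supplied embryos that of Lipo1 was smaller, and the groups did not overlap. The levels were 6.38 ± 0.0398 and 6.22 ± 0.0203 (SD, n = 5 each), a difference of -0.17 (SE 0.0299) or 0.891-fold. Of all genes 12.8% had a lower mean level, beside 8.29% for 1700106J16Rik, 13.3% for Dnahc8 and 15% for Lipo1. Rlog values shrink the differences of such weakly expressed genes, and 2.89% of all genes had a smaller residual SD than A730017C20Rik. Its neighbours were Adamts19 at 8.51 kb, which differed by -0.059 (SE 0.159, limma adjusted p = 0.998), and Chsy3 at 98.4 kb, which differed by 0.043 (SE 0.0332, limma adjusted p = 0.978).

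Of 19 genes of the Notch pathway 18 had a row, with 0 rises and 0 falls by limma past the adjusted threshold, 2 genes with an unadjusted p under 0.05 and a median difference of -0.016. These 2 were the receptor genes Notch3, at 0.14 (SE 0.0493, limma adjusted p = 0.900), and Notch2, at 0.13 (SE 0.0530, limma adjusted p = 0.928), both on the higher side.

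The 7 genes were chosen by the difference between the groups, and no threshold was given. The limma p-values of that comparison show where they stand. Among genes lower in withdrawn embryos the 7 held ranks 2 (1700106J16Rik), 5 (Serpinb6b), 6 (A730017C20Rik), 8 (Dnahc8), 11 (Slfn9), 12 (Lipo1) and 16 (Trf) by p, and genes of the ranks between were not chosen. The limma adjusted p was 0.0288 for 1700106J16Rik, 0.0654 for Serpinb6b, A730017C20Rik and Dnahc8, 0.167 for Slfn9, 0.178 for Lipo1 and 0.269 for Trf. These p-values come from the difference that chose the genes, so they describe the choice and test nothing. An adjusted p under 0.05 was found for 1 of the 7 and for 0.0221% of all genes in this direction. All 7 had an unadjusted p under 0.05, as did 2.84% of all genes on the lower side and 2.45% on the higher. Of the genes not chosen, those of smallest p were Zfp783 (-0.50), Rps4y2 (-0.41), Ccdc36 (-0.16) and the meiotic cohesin gene Rec8 (-0.48). Just outside stood Prkcdbp at rank 17 (-0.24, limma adjusted p = 0.280) and Gimap9 at rank 18 (-0.21, limma adjusted p = 0.281), beside Trf as the last of the 7.

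Within the groups the 7 genes showed no common direction. Each gene's deviation from its own group mean was taken in each of the 10 embryos, and the 21 pairs of genes were correlated over these deviations. The median r was -0.014, with 10 of 21 pairs above 0 (47.6%), where the median over all pairs of the 13578 genes was -0.001 and 49.9% were above 0. By exact permutation within groups, two-sided, 0 of 21 pairs passed an adjusted p of 0.05 and 4 had an unadjusted p under 0.05. By Spearman's rho and the same exact permutation 0 passed, with 3 at an unadjusted p under 0.05. The share of all gene pairs at an unadjusted p under 0.05 is not given, so nothing is read from the counts of 4 and 3.

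**Figure D2:**
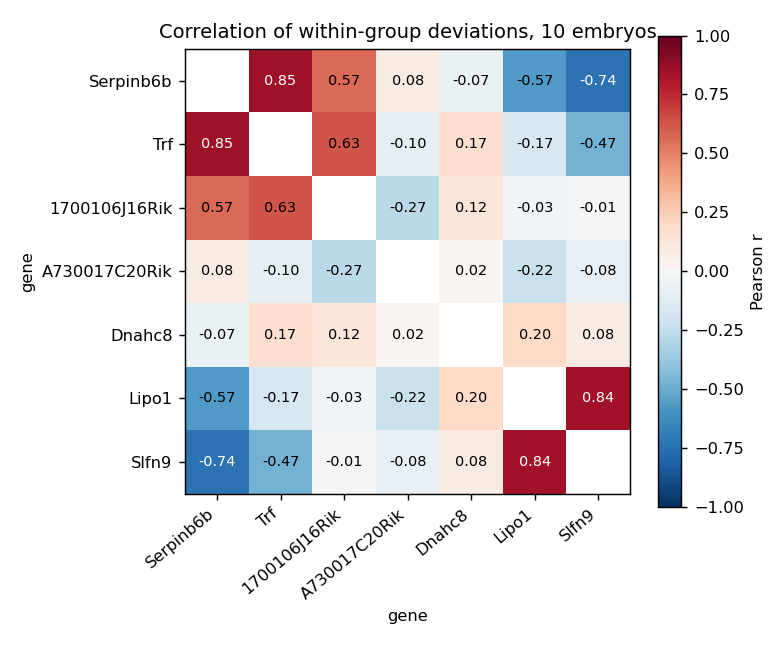
Pearson r between the within-group deviations of each pair of the 7 genes over 10 embryos, from -1 (blue) to 1 (red). Serpinb6b with Trf (0.85) and Lipo1 with Slfn9 (0.84) are the highest, Serpinb6b with Slfn9 (-0.74) is the lowest, and A730017C20Rik and Dnahc8 show no pair beyond 0.27 in size.

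In the 4 pairs of smallest p, none past the adjusted threshold, r was above 0 for Lipo1 with Slfn9 and Serpinb6b with Trf, and below 0 for Serpinb6b with Lipo1 and Slfn9. Lipo1 and Slfn9 had the smallest p (r = 0.84, exact permutation p = 0.00965, adjusted p = 0.108; rho = 0.79, exact permutation p = 0.00771, adjusted p = 0.105). Serpinb6b and Trf were at r = 0.85 (exact permutation p = 0.0197, adjusted p = 0.120; rho = 0.64, exact permutation p = 0.0559, adjusted p = 0.293). Serpinb6b and Slfn9 were at r = -0.74 (exact permutation p = 0.0228, adjusted p = 0.120; rho = -0.83, exact permutation p = 0.0151, adjusted p = 0.105). Serpinb6b and Lipo1 were at r = -0.57 (exact permutation p = 0.0103, adjusted p = 0.108; rho = -0.70, exact permutation p = 0.0147, adjusted p = 0.105).

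Part of these relations rested on 2 embryos. Supplied embryo 4 deviated from its group by -2.25 residual SDs in Serpinb6b, -2.03 in Trf and 1.30 in Slfn9. Withdrawn embryo 1 deviated by -2.06 in Lipo1, -2.05 in Slfn9 and 0.88 in Serpinb6b. Both embryos were then left out before the group means were taken, a choice made after seeing the data. This gave r = 0.41 for Lipo1 and Slfn9, 0.54 for Serpinb6b and Trf, -0.47 for Serpinb6b and Lipo1, and 0.01 for Serpinb6b and Slfn9. Leaving out the 2 embryos farthest from the median of the first gene of each pair gave 0.73 for Lipo1 and Slfn9, 0.38 for Serpinb6b and Trf, -0.64 for Lipo1 and Serpinb6b and -0.80 for Serpinb6b and Slfn9. Here, and wherever the 2 farthest embryos are left out below, the group means stayed those of all embryos. A shift between the groups can therefore enter these r values, which are not like the values above. For Serpinb6b and Trf r was 0.50 without supplied embryo 4 alone and 0.81 without supplied embryo 2 alone. Within the supplied embryos alone Serpinb6b and Trf were at r = 0.98, and within the withdrawn embryos alone at 0.27. Serpinb6b and Slfn9 were at -0.92 and -0.91, with 5 embryos each and no test.

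**Figure D3:**
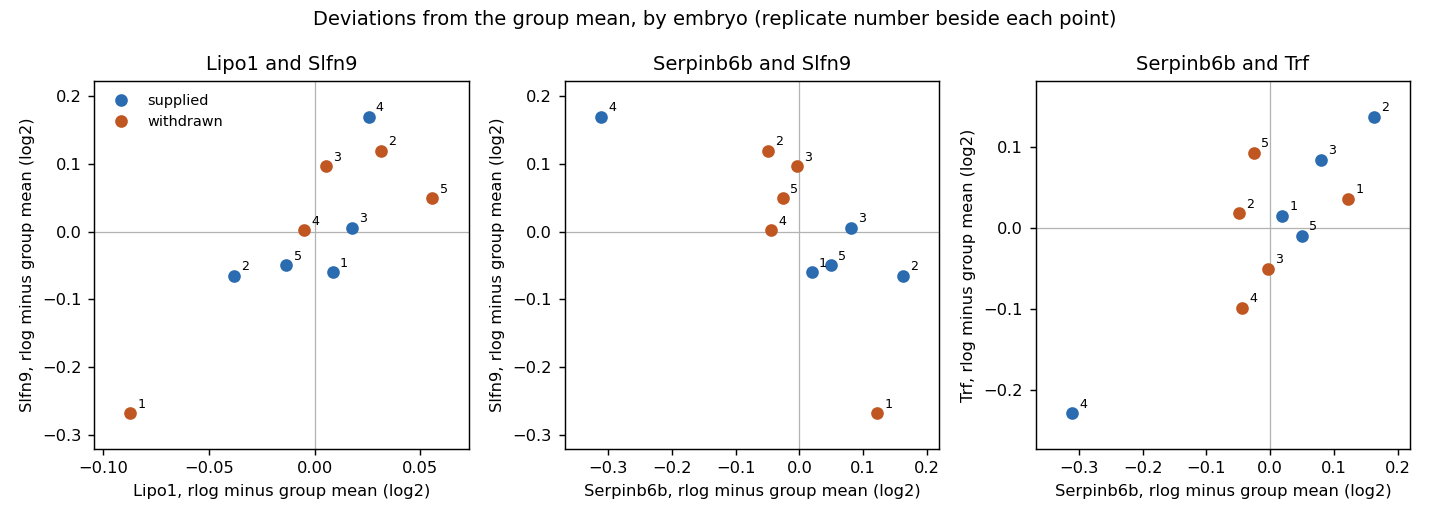
Deviation of each embryo from its group mean (rlog, log2 scale) for Lipo1 and Slfn9, Serpinb6b and Slfn9, and Serpinb6b and Trf, with supplied embryos in blue, withdrawn embryos in orange and replicate numbers beside the points. Supplied embryo 4 and withdrawn embryo 1 lie at the ends of the cloud in the Serpinb6b and Slfn9 panel, and r is 0.01 without them.

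Dnahc8 had no r beyond 0.20 with any of the others, and A730017C20Rik lay between -0.27 and 0.08. Single embryos moved these values: A730017C20Rik with Dnahc8, at 0.02 over all embryos, was at 0.61 without supplied embryo 5 and at -0.41 without supplied embryo 3, and Dnahc8 with 1700106J16Rik was at 0.43 without supplied embryo 3. 1700106J16Rik reached 0.63 with Trf (exact permutation p = 0.103, adjusted p = 0.432; rho = 0.54) and 0.57 with Serpinb6b (exact permutation p = 0.186, adjusted p = 0.559; rho = 0.36). With supplied embryos 2 and 3 left out and the group means unchanged, these r values were 0.39 and 0.36. Supplied embryos spread more than withdrawn embryos in 5 of the 7 genes, with Lipo1 and Slfn9 the exceptions, where 52.5% of all genes had the larger SD in supplied embryos. The median ratio of the SDs was 1.97 over the 7 genes and 1.03 over all genes. No embryo was high or low in all of them: withdrawn embryo 2 was the highest of its group in 4 of the 7 and supplied embryo 4 the lowest of its group in 3 and the highest in 2.

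Whether the 7 genes follow a common cell source was asked with 13 lists of marker genes, of which 12 are named after cell types and 1 holds immediate early genes. Sertoli cells are not among the cell types named above for the female gonad, so the Sertoli list is not read as a cell source here. The mean of each list was set against each gene over the within-group deviations, 91 relations in all. By exact permutation within groups 0 of 91 passed an adjusted p of 0.05, with 12 at an unadjusted p under 0.05. By Spearman's rho 1 passed, Serpinb6b with the Sertoli list, and 12 had an unadjusted p under 0.05. The share that other genes of the table would give is not known, so nothing is read from these counts of 12. No list ran in 1 direction with all 7 genes: the number of genes with an r above 0 lay between 2 (mesonephric epithelium) and 5 (macrophage and neutrophil granule).

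**Figure D4:**
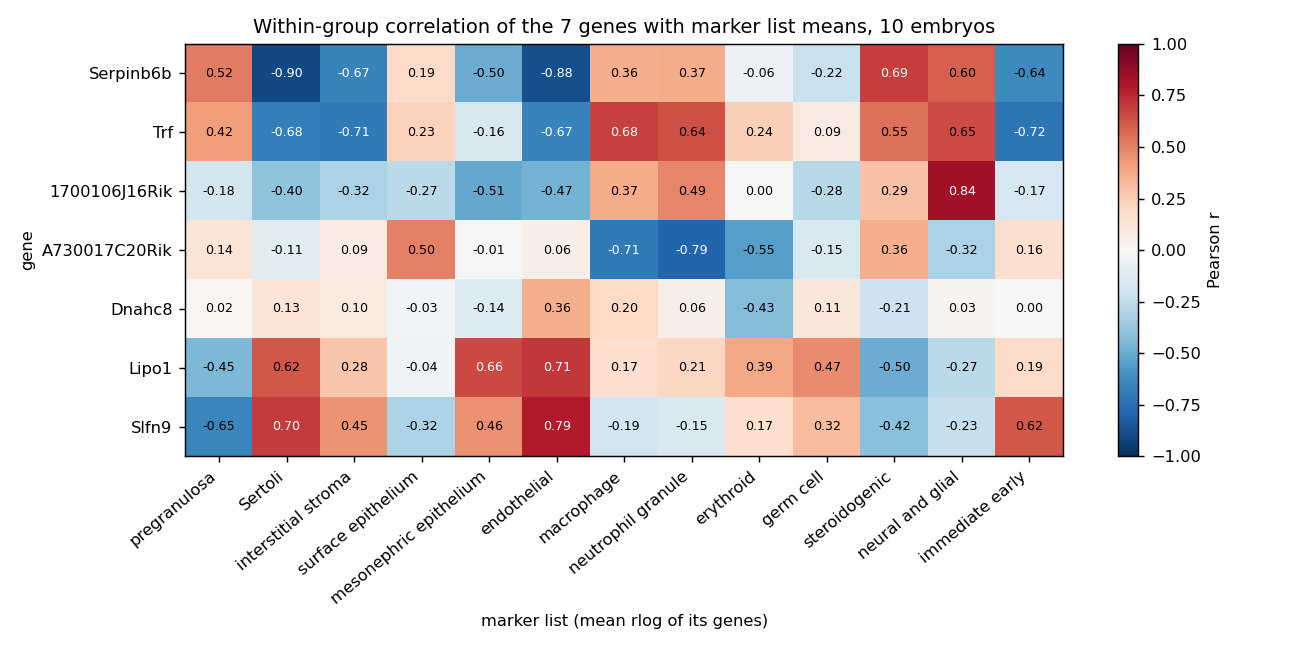
Pearson r between the within-group deviations of each of the 7 genes (rows) and of the mean of each marker list (columns) over 10 embryos, from -1 (blue) to 1 (red). With the endothelial list Serpinb6b and Trf are at -0.88 and -0.67 and Lipo1 and Slfn9 at 0.71 and 0.79, while 1700106J16Rik stands out with the neural and glial list (0.84) and A730017C20Rik with the neutrophil granule list (-0.79).

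Serpinb6b had its lowest r with the Sertoli and endothelial lists. With the 6 measured genes of the Sertoli list (Sox9, Fgf9 and Dmrt1 among them; Amh, Ptgds and Dhh had no row) its r was -0.90 (exact permutation p = 0.000556, adjusted p = 0.0506; rho = -0.90, exact permutation p = 0.000347, adjusted p = 0.0316), and without the 2 embryos farthest in the list it was -0.78. The list mean lay between 7.54 and 7.66 in supplied and between 7.50 and 7.58 in withdrawn embryos, with supplied embryo 4 the highest. With the 13 endothelial genes its r was -0.88 (exact permutation p = 0.00514, adjusted p = 0.234; rho = -0.77). It was -0.81 without the 2 farthest embryos, supplied embryo 4 and withdrawn embryo 1, with the group means unchanged. With these same 2 embryos left out before the group means were taken, r was -0.66 for the Sertoli list and -0.64 for the endothelial list.

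For Lipo1 and Slfn9 the r with both lists was above 0. With the endothelial list Lipo1 had r = 0.71 (exact permutation p = 0.0194, adjusted p = 0.291; rho = 0.70) and Slfn9 r = 0.79 (exact permutation p = 0.0305, adjusted p = 0.291; rho = 0.66). Without the 2 embryos farthest in the list, supplied embryo 4 and withdrawn embryo 1, these were 0.53 and 0.43, and with the same 2 left out before the group means were taken they were 0.29 and -0.26. Those 2 embryos held the highest and the lowest endothelial mean, at 8.85 and 8.57, where the others lay between 8.65 and 8.77. All 13 endothelial markers had a row, Pecam1, Cdh5 and Kdr included, and the part of endothelial cells in the levels of Slfn9, Lipo1 and Serpinb6b was not tested.

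Trf had its highest r with macrophage markers and its lowest with immediate early genes. With the 14 macrophage genes its r was 0.68 (exact permutation p = 0.0274, adjusted p = 0.291; rho = 0.83), and 0.64 without the 2 farthest embryos. Close to it were the neural and glial list at 0.65 and the neutrophil granule list at 0.64 (exact permutation adjusted p = 0.446 and 0.376). With the 9 immediate early genes its r was -0.72 (exact permutation p = 0.0320, adjusted p = 0.291; rho = -0.81), and -0.34 without the 2 farthest embryos, of which supplied embryo 4 was one. The immediate early mean was 11.32 in that embryo and between 9.83 and 10.17 in the other supplied embryos. In withdrawn embryos it lay between 9.56 and 11.33, so it did not separate the groups.

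1700106J16Rik had its highest r with the neural and glial list, and A730017C20Rik its lowest with the lists of myeloid cells. For the first, r was 0.84 (exact permutation p = 0.0276, adjusted p = 0.291; rho = 0.70, exact permutation p = 0.129). Without the 2 farthest embryos, supplied embryos 2 and 5, r was 0.76, with supplied embryo 3 still included and the group means unchanged. It was 0.93 within supplied and -0.41 within withdrawn embryos. The neural list had 8 of 13 genes with a row (Sox10, Chga, Th and Dbh were among those without), and its mean was 8.71 and 8.18 in supplied embryos 2 and 3 against 7.33 to 7.56 in the other supplied and 7.37 to 7.49 in the withdrawn embryos. The list mean differed by -0.41 between groups, with Chgb at -2.10 (limma adjusted p = 0.900). Below 0 were 7 of the 8 genes, beside 6765 of all 13578 genes, and nothing is read from this count. The neural list is the mean of these 8 genes. The part of that list in the lower 1700106J16Rik was not tested.

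A730017C20Rik had r = -0.79 with the neutrophil granule list (exact permutation p = 0.0229, adjusted p = 0.291; rho = -0.56) and r = -0.71 with the macrophage list (exact permutation p = 0.0205, adjusted p = 0.291; rho = -0.62). Without the 2 farthest embryos, supplied embryo 3 and withdrawn embryo 5, these were -0.51 and -0.44. With the erythroid list r was -0.55 (exact permutation p = 0.137, adjusted p = 0.446). Its highest means were in the same 2 embryos, at 9.58 and 9.54. The neutrophil list, with 6 of 8 genes measured, lay between 6.90 and 8.15 in supplied and between 6.75 and 7.55 in withdrawn embryos. Between groups 6 of its 6 genes were below 0 (median -0.40, 0 past the adjusted threshold by limma and 5 at an unadjusted p under 0.05). Of all 13578 genes 6765 were below 0, and 2.84% were lower at an unadjusted limma p under 0.05. The highest list mean, 8.15, was that of supplied embryo 3, and nothing is read from these counts. A730017C20Rik was chosen for its lower side between groups, and the part of neutrophils in its level was not tested.

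Germ cell markers, the possible remainder of the Oct4 sort, had no relation with the 7 past a threshold. The r values with the germ cell list lay between -0.28 (1700106J16Rik) and 0.47 (Lipo1), with 0 of 7 at an unadjusted p under 0.05 by exact permutation, and rho reached 0.60 for Lipo1 and 0.64 for Slfn9. These values moved with the embryos included: without withdrawn embryos 4 and 5, the farthest in the list, r was -0.72 for Trf, where it was 0.09 with all embryos, and -0.56 for Serpinb6b. Within the supplied embryos alone r was -0.87 for 1700106J16Rik and -0.78 for Trf, with no test. Of 16 listed germ cell markers 6 had a row, and the defining markers Pou5f1, Ddx4, Dazl, Stra8 and Sycp3 had none. Of the 6 measured markers 4 were below 0 between groups and 2 above, with 0 past the adjusted threshold by limma. Rec8 (-0.48) and Tdrd1 (-0.20) were far below the others, which were Kit (-0.097), Dnd1 (-0.031), Nanos3 (0.028) and Tfap2c (0.067). The list mean was between 6.52 and 6.57 in supplied and between 6.34 and 6.52 in withdrawn embryos. Dnahc8 was at r = 0.11 and A730017C20Rik at -0.15 with it. Pregranulosa markers, 12 of 12 measured, had r values between -0.65 (Slfn9) and 0.52 (Serpinb6b), with 0 of 7 at an unadjusted p under 0.05.

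The genes whose within-group pattern was most like each of the 7 were found among all 13578, over 10 embryos. For 1700106J16Rik these included Pnmal1 (r = 0.947) and the semaphorin receptor gene Nrp2 (0.931). For Slfn9 they were the ubiquitin ligase gene Trim41 (0.990), the kinase gene Tnk2 (0.967) and Alms1 (0.949). For Lipo1 they were the valyl-tRNA synthetase gene Vars (0.960), Zfp646 (0.952) and Uhrf1, a partner of the maintenance DNA methyltransferase (0.932). 

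For Serpinb6b the most alike were Fmo5 (0.978), Pdcd2 (0.953) and Mterf (0.943), of which the last fell to 0.75 without supplied embryo 4. For Trf they were Nsfl1c (0.955), Snx3 (0.947) and the UDP-glucose dehydrogenase gene Ugdh (0.943). For Dnahc8 they were Ankra2 (0.916), the glucosidase gene Mogs (0.915) and Znhit2-ps (0.903), and for A730017C20Rik Ccdc8 (0.951), the syntaxin gene Stx16 (0.937) and Csad (0.937). None of these 21 genes was past an adjusted p of 0.05 between groups by limma (0.900 to 0.999), where 0.0221% of all genes were lower and 0% higher at that threshold. None of the 7 genes was among the 3 most alike of another, and with so many genes for 3 places nothing is read from this. With 10 embryos and this many genes, the highest r for any gene is large, and these names are a description.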

How the data were processed

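RNA from the Oct4-negative gonadal cells of 10 single embryos, 2 ng each, was sequenced with a low-input total RNA kit, per the labels' protocols. The authors deposited regularised log2 (rlog) values per gene. Trim Galore 0.4.0, TopHat2 2.1.1, DESeq2 1.20.1 and build mm9 are named, per the submitters' processing notes. The counting tool and strand setting are not given in the sources used here. Sample medians lay between 9.12 and 9.14, depth is unknown, and values reached from 4.04 to 21.2. All 10 columns matched a sample title, and 0 pairs of samples shared over 1% of values. Nothing in the labels says whether embryos are litter mates, and p-values therefore reflect only the spread among these 10 libraries, which may be technical.

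The table was fitted whole with limma 3.58.1 (R 4.3.3, variance trend, no filter, no covariate, Benjamini-Hochberg at 0.05). Correlations used deviations from group means (Python 3.11.15, scipy 1.17.1), with exact permutation over 14400 orders within groups (smallest possible p 6.94e-05) and Benjamini-Hochberg adjustment over the 21 pairs and, separately, the 91 gene and list relations. Where the 2 embryos farthest in a gene or list were left out, the group means of all embryos were kept. Lists needed 3 measured genes. Both tests were tried on simulated data. The 7 genes and all lists were chosen with earlier results of these data known. Named genes were the 7, the 3 most alike of each, the nearest measured neighbours in the RefSeq annotation (99.4% of genes matched), the 2 of smallest p in each related list and the 4 smallest p-values not chosen; Tfrc, the marker genes, Prkcdbp, Gimap9, Slfn8 in its list and Chgb were named for their role or after their values were seen. A few items that this rule names are not reported here. Shared 50-base words were counted in GENCODE M21 transcripts, and distances are on GRCm38.

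Other settings were a mean minimum of 5 or 7, no variance trend, robust variance, median centring, quantile normalization, a replicate block, one mean per shared title number, Spearman's rho, leaving out each embryo and, added after seeing the data, leaving out supplied embryo 4 and withdrawn embryo 1 together.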

Additional observations from a re-analysis of the deposited data

Results flagged for a closer look

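Of 130 groups of 5 embryos examined, 10 held an embryo standing far from the other 4, with a gap to the next over Dixon's 95% critical value. Chance gives about 1 in 20 groups where groups are independent. Here they are not, as the most alike genes were picked to follow the 7, so nothing is read from the count. Of the 7 genes this was Serpinb6b in withdrawn embryo 1, at 8.91 with the next embryo at 8.78. Withdrawn embryo 1 also stood apart in the endothelial mean (8.57, next 8.69), in Fmo5 (7.34, next 7.28) and Uhrf1 (11.72, next 11.97), the genes most like Serpinb6b or Lipo1, and in the iron exporter gene Slc40a1 (10.10, next 9.85). Supplied embryo 4 stood apart in the immediate early mean (11.32, next 10.17), in Trim41 (9.998, next 9.89) and in Ugdh (9.87, next 10.06). Withdrawn embryo 5 had the highest erythroid mean (9.54, next 9.07) and Slfn2 (5.54, next 5.46).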

How the results depend on the processing

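All 7 genes stayed lower in withdrawn embryos under each setting that could be fitted, 18 for the 4 genes with a mean under 7 and 19 for the other 3. The genes were chosen for this direction on the same values, so nothing is read from it. Where the groups did not overlap, leaving out embryos could not reverse it. The differences ranged from -0.24 to -0.20 in 1700106J16Rik, -0.18 to -0.15 in A730017C20Rik, -0.21 to -0.17 in Dnahc8, -0.18 to -0.14 in Lipo1, -0.51 to -0.36 in Serpinb6b, -0.37 to -0.23 in Slfn9 and -0.34 to -0.24 in Trf. The limma adjusted p of this difference, which chose the genes and tests nothing here, ranged from 0.0072 to 0.289 for 1700106J16Rik, and without supplied embryo 4 it was 0.0009 for Serpinb6b and 0.0199 for Trf.

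Of all genes 3 were lower at an adjusted p under 0.05. The count was 1 with a mean minimum of 7, with no variance trend, with quantile normalization and with shared title numbers averaged, and 5 with robust variance or without supplied embryo 4 and withdrawn embryo 1. Leaving out 1 embryo gave 0 (without supplied embryo 1 or withdrawn embryo 5) to 4. The count of higher genes and of called related genes was 0, also with the replicate block. The replicate numbers did not pair the samples (same-numbered deviations correlated at -0.364 to 0.172, with 1 of 5 over 0.1, and 1 of 10 samples was closest to its own number). With the replicate block 2 genes were lower, and 1700106J16Rik had a limma adjusted p of 0.0499.

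The pairs past the threshold numbered 0, and 0 to 1 when 1 embryo was left out: without withdrawn embryo 5, Lipo1 and Slfn9 had r = 0.91 (exact permutation adjusted p = 0.0219). The relations with marker lists past it numbered 0, but 1 with Spearman's rho and 1 with quantile normalization, both Serpinb6b with the Sertoli list, and 0 to 2 when 1 embryo was left out: without supplied embryo 3, Serpinb6b with the Sertoli list and Lipo1 with the endothelial list (exact permutation adjusted p = 0.0316 each), and without supplied embryo 5 the first of these. The median r of the 21 pairs lay between -0.101 and 0.077 over all settings. Where calls changed, the cause was not tested. Depth is unknown, so its limit on these values cannot be given.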
